A study of Mus musculus with 15 samples.

Results

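Ccl2, Ccl7, Ccl9, Cxcl1, Cxcl2, Cxcl5, Cxcl12, Cxcl14, Cx3cl1 and Il6 encode 9 chemokines and the cytokine interleukin 6, secreted or membrane-bound signals that fibroblasts can make. They were chosen by symbol, and 22 of the 65522 transcription units in the deposited table carried a member symbol. Each gene was described by the unit on its own strand, which left 10 units, and the other 12 lay on the opposite strand of the same genes.

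Chemokines bind G protein-coupled receptors on leukocytes and other cells and guide where those cells move. CC chemokines such as Ccl2 mainly attract monocytes, CXC chemokines that carry an ELR motif such as Cxcl1 attract neutrophils, and Cxcl12 retains and guides cells that bear Cxcr4. Fibroblasts are a well known source of Il6, Ccl2 and Cxcl1 in inflamed or wounded tissue, and NF-kB is the transcription factor best known for switching these genes on.

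RNA-seq libraries of polyadenylated RNA had been made from 15 samples of C57BL/6 female mouse embryonic fibroblasts, to ask what loss of the nuclear protein CIZ1 and adaptation to long-term culture do to gene expression. Primary populations came from individual embryos and were collected before passage 5, and culture-adapted lines were grown on from the same populations. WT cells were CIZ1 +/+ (embryos 13.1, 13.8 and 14.4, each as a primary and as an adapted population), and CIZ1 null cells were CIZ1 -/- through a gene trap behind the first exon of the gene (embryos 13.15, 13.17 and 14.2, likewise). Primary 13.17 carried a doxycycline-inducible CIZ1 transgene and was untreated, and the study lists the transgene in its adapted derivative too. A second untreated sample with the transgene (S13) and 2 samples treated with doxycycline at 5 to 10 µg/ml (S14 and S15) completed the set. The study names 2 transgenic populations, so treated and untreated samples share populations, but no population was assigned here to S13, S14 or S15. Each adapted line came from the cells of 1 embryo, and 3 lines stand for a group. All cells were grown in serum-containing medium, and no inflammatory stimulus was given.

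Values are FPKM, fragments scaled to transcript length and to the mapped fragments of the library. Levels were compared between genes as well as samples, for the own-strand unit of each gene. Ciz1 lay between 18.7 and 25.0 FPKM in WT samples and between 0.0546 and 0.724 FPKM in untreated CIZ1 null samples, and at 296 and 191 FPKM in S14 and S15. The 11 fibroblast markers were present in every group, but their summed level was 8274 to 8958 FPKM in primary WT and 2876 to 4917 FPKM in adapted WT cells, and 8724 to 8872 against 2377 to 4868 FPKM in CIZ1 null cells. Macrophage markers, which matter because macrophages also make many of these chemokines, summed to 18.0 to 33.1 FPKM in primary WT, 9.39 to 94.9 FPKM in primary null, 3.56 to 16.4 FPKM in adapted WT and 9.45 to 20.0 FPKM in adapted null cells. From primary to adapted cells, mean Lyz2 went from 14.8 to 2.40 FPKM in WT and from 42.7 to 5.85 FPKM in CIZ1 null cells, Csf1r from 3.12 to 1.58 and from 4.08 to 2.02 FPKM, and Cd14 from 1.41 to 5.24 and from 1.58 to 5.25 FPKM. Fcgr1 and Aif1 were listed at 0 in all 6 adapted samples, as Aif1 was in primary WT cells, and the part of other cell types in the results was not tested. Depth was not given in the files used here, but from the steps of low values it lay between 0.48 (S13) and 1.625 times that of primary WT 14.4. Adapted samples lay between 0.54 and 1.181 and primary WT and CIZ1 null ones between 1.0 and 1.625, and the ranges overlapped.

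The genes form 2 neighbourhoods and several singletons (GENCODE annotation of GRCm38). Ccl2 (chr11:82035571-82037453) and Ccl7 (chr11:82045712-82047525) lie side by side on the plus strand, with Ccl9 (chr11:83572919-83578636) further along on the minus strand. Cxcl5 (chr5:90759360-90761624), Cxcl1 (chr5:90891241-90893115) and Cxcl2 (chr5:90903871-90905938) lie together on the plus strand, and Il6 (chr5:30013114-30019981) is elsewhere on that chromosome. Cxcl12 (chr6:117168535-117181367), Cx3cl1 (chr8:94772009-94782427) and Cxcl14 (chr13:56288643-56296551, minus strand) are alone.

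Promoter windows of 300 bases, from 250 bases before to 50 bases after the start, were taken from RefSeq (GRCm38.p6) for 7 members, and Ccl2, Ccl7 and Cxcl5 had no entry. The windows of 5 members are printed because 2 of the genes moved in the same direction in every line (Cxcl12, Cxcl14) and the others are textbook NF-kB targets. They are chr5:90890995-90891294 (Cxcl1), chr5:90903649-90903948 (Cxcl2), chr5:30012864-30013163 (Il6) and chr6:117168285-117168584 (Cxcl12) on the plus strand, and chr13:56296502-56296801 on the minus strand (Cxcl14). Capitals mark matches, on either strand, to the NF-kB consensus, TGANTCA (AP-1), TTNNGNAAT (C/EBP) or TTCNNNGAA (STAT).
Cxcl1: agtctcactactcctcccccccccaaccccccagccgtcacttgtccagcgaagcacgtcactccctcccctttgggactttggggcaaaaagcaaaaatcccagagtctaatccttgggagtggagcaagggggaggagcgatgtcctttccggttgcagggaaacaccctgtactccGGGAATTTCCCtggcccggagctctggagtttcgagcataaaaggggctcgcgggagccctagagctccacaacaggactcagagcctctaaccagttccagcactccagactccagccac
Cxcl2: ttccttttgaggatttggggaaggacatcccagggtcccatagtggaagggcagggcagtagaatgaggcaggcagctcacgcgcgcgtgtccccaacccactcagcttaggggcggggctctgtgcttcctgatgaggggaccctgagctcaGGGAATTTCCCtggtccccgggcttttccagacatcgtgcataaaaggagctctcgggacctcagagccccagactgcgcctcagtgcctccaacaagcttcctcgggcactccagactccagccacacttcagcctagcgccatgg
Il6: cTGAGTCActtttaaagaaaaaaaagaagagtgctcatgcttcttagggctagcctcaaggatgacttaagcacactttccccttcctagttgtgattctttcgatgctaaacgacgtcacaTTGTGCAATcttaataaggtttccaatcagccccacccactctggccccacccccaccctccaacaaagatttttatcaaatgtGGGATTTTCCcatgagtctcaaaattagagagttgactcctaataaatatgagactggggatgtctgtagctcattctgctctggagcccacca
Cxcl12: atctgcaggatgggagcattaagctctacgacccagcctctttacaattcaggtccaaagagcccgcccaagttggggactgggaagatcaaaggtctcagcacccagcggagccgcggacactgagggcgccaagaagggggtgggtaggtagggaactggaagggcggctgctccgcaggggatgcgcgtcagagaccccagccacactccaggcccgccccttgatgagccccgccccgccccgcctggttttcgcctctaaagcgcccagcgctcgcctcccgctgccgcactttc
Cxcl14: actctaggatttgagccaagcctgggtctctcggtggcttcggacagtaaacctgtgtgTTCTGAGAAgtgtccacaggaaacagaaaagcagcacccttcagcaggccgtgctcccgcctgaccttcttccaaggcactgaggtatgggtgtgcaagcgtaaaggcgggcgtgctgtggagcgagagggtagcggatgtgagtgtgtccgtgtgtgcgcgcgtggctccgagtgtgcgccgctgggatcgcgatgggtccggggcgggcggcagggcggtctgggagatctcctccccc
The NF-kB consensus was found in 4 of the 7 windows, those of Ccl9, Cxcl1, Cxcl2 and Il6, and in 4.5% of all 32817 windows. Cxcl1 and Cxcl2 held the same 10 bases, GGGAATTTCC, whose reverse strand matches again with a shift of a base, so both matches share a run of capitals. It starts 71 bases before the start of Cxcl1 and 97 bases before that of Cxcl2. Il6 held GGGATTTTCC 44 bases before its start, with TGAGTCA near the far end of its window and TTGTGCAAT between them. In all windows, TGANTCA was present in 7.81% and TTNNGNAAT in 11.5%. Cxcl14 held TTCTGAGAA (STAT motif, in 8.29% of windows), and Cxcl12 and Cx3cl1 held none of the 4 motifs. G and C made up 64.7% of the Cxcl12 and 62.7% of the Cxcl14 window, with 20 and 22 CpG dinucleotides, against medians of 52.7% and 7 over all windows. The Il6 window had 44.0% and 3.

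By own-strand unit, Ccl2 was the most abundant member in primary WT cells at 162 ± 56.5 FPKM (SD, n = 3), followed by Ccl7 (149 ± 34.6), Cxcl14 (99.3 ± 44.6), Cxcl12 (57.6 ± 5.72) and Cxcl5 (52.1 ± 49.3). Cx3cl1 (11.3 ± 1.98), Cxcl1 (6.84 ± 2.34), Il6 (4.23 ± 1.48), Ccl9 (2.10 ± 1.66) and Cxcl2 (0.778 ± 1.12) were lower. In 8 of the 9 pairs of neighbours in this order the ranges of the 3 populations overlapped, and the step from Cx3cl1 to Cxcl1 was the exception. The order depends on the unit chosen, because opposite-strand units may hold reads of the same gene. In primary WT cells those of Cxcl14 had means of 126 and 9.905 FPKM, and that of Ccl2 25.45 FPKM. Adapted cells had another order: Cxcl12 came second in both genotypes (600 ± 406 FPKM in WT and 506 ± 197 in CIZ1 null cells), while Cxcl14 fell to eighth and sixth place (8.94 ± 14.04 and 16.9 ± 28.3). Neighbours overlapped in 9 of 9 pairs in adapted WT cells and in 7 of 9 in adapted CIZ1 null cells.

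**Figure D1:**
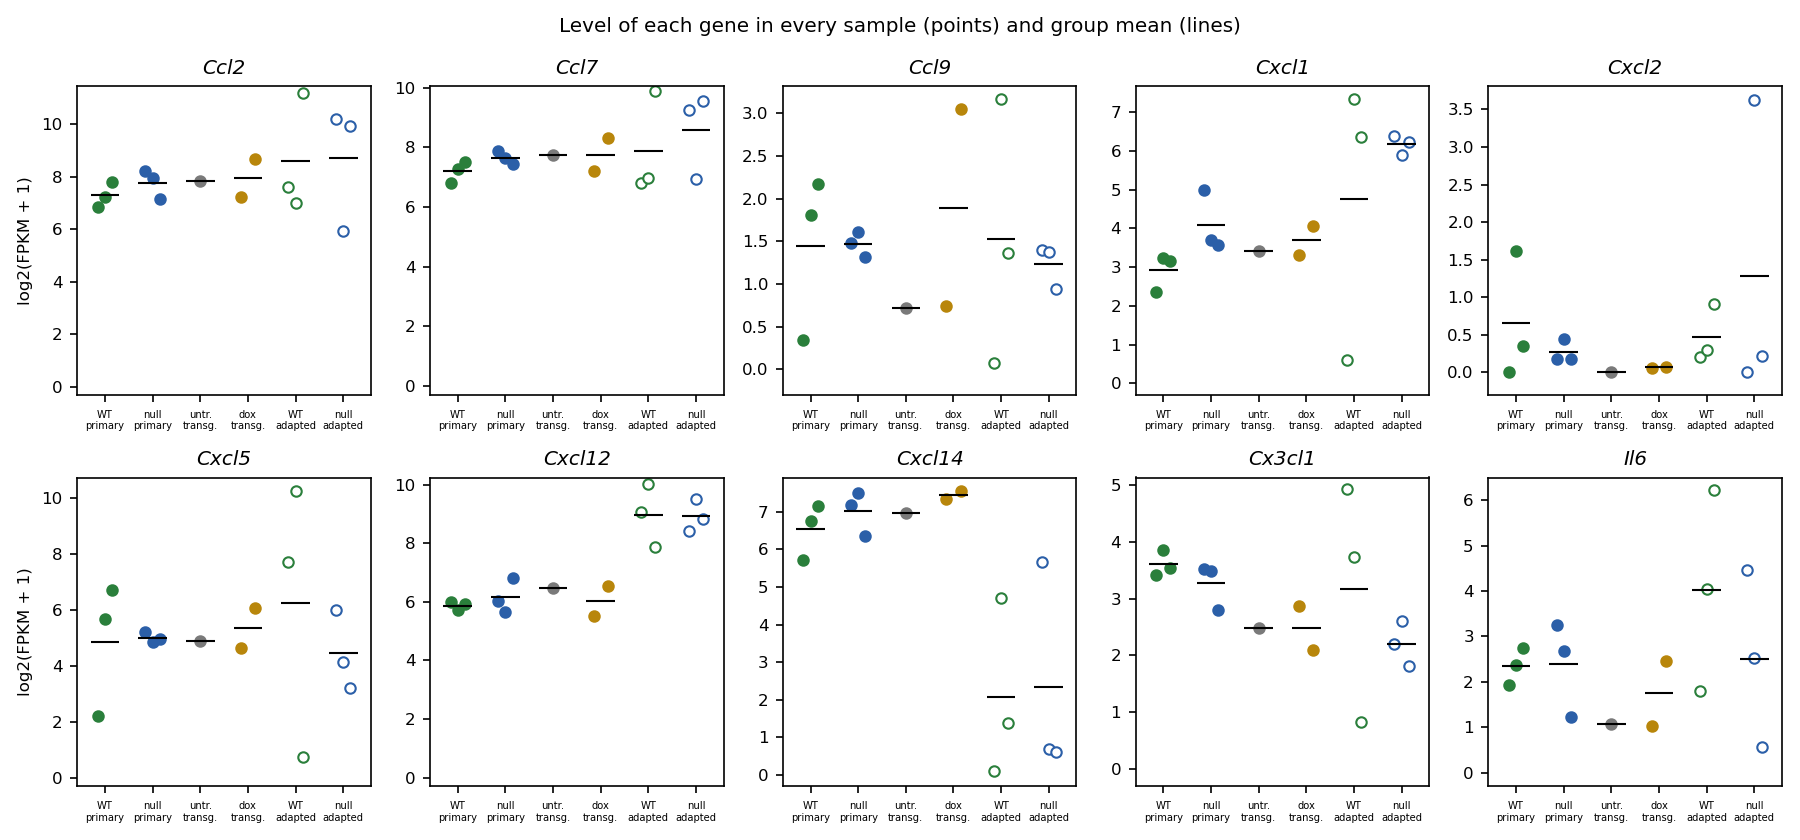
Each panel plots log2(FPKM + 1) of a gene in all 15 samples, by group. Points are samples, lines are group means, filled points are primary and open points adapted populations, and untreated 13.17 is among the primary CIZ1 null points. All open points of Cxcl12 lie above all filled ones, and all open points of Cxcl14 lie below all filled ones.

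Cxcl12, the ligand of Cxcr4 and a typical product of stromal cells, was higher in all 6 adapted lines than in any primary population. In primary WT cells it was at 51.2, 59.5 and 62.1 FPKM (13.1, 13.8 and 14.4, the order used for WT cells from here on), and in adapted WT cells at 533, 1035 and 231 FPKM. Primary CIZ1 null cells had 48.9, 112 and 63.7 FPKM (13.15, 13.17 and 14.2, the order used for CIZ1 null cells), and adapted ones 339, 724 and 456 FPKM. The groups did not overlap in either genotype, and within a line adapted cells had 3.72 to 17.4 times the primary level. The fitted log2 change was 3.11 (SE 0.51, limma adjusted p = 0.0218, higher in 3 of 3 lines) in WT and 2.76 (SE 0.40, adjusted p = 0.0262, 3 of 3) in CIZ1 null cells. The WT call was lost when any 1 primary WT sample was left out (adjusted p = 0.0969 without 14.4, 0.091 without 13.1 and 0.101 without 13.8), with log2 changes of 3.03 to 3.17. Calls over all units fell from 1902 to 62, 70 and 65 in these fits. The CIZ1 null call was lost without primary 14.2 (adjusted p = 0.108), primary 13.15 (0.126), primary 13.17 (0.0725) or adapted 14.2 (0.0722), with log2 changes of 2.50 to 3.09. There, calls over all units fell from 975 to 25, 30, 30 and 40. With the line as a block, adjusted p was 0.0496 in WT and 0.0586 in CIZ1 null cells.

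Cxcl14, a chemokine of epithelia and fibroblasts whose receptor is still debated, moved the other way. It was at 107, 139.8 and 51.4 FPKM in primary WT cells and at 0.0787, 25.1 and 1.61 FPKM in the adapted lines. In CIZ1 null cells it went from 179, 81.1 and 144 FPKM to 49.6, 0.632 and 0.544 FPKM. Every adapted line lay below every primary population, but the size varied widely: adapted 13.15 kept 0.278 of its primary level, and adapted 13.1 kept 0.000738. The log2 change was -4.47 (SE 1.13) in WT and -4.68 (SE 1.34) in CIZ1 null cells, and neither passed (adjusted p = 0.057 and 0.0864, lower in 3 of 3 lines each). Without adapted WT 13.8 the WT change was -5.79 and passed (adjusted p = 0.0177), as did the CIZ1 null change without adapted 13.15 (-6.34, adjusted p = 0.00542). Over all units, 1296 and 2999 were called in these fits, against 1902 and 975 with every sample. The 2 opposite-strand units of Cxcl14 fell by 2.70 and 5.35 on the log2 scale in WT cells and passed there (adjusted p = 0.0362 for both).

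Taking all 6 lines together, with line as a block, is a comparison added after the data were seen. Cxcl12 rose by 2.93 on the log2 scale (SE 0.26, limma adjusted p = 0.00112, 6 of 6 lines) and Cxcl14 fell by 4.57 (SE 0.69, adjusted p = 0.00397, 6 of 6 lines). Both held when any 1 line was left out, with adjusted p of up to 0.00601 for Cxcl12 and 0.0139 for Cxcl14. These 2 of 10 members were the ones called, against 31.4% of all units in the same fit. In an exact sign-flip permutation test over the 6 lines (two-sided, 10 genes tested, unadjusted), Cxcl12 and Cxcl14 each gave p = 0.03125, the smallest p that 6 lines allow. The mean change per line was 2.93 ± 0.741 for Cxcl12 and -4.57 ± 2.08 for Cxcl14 (SD, n = 6).

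**Figure D2:**
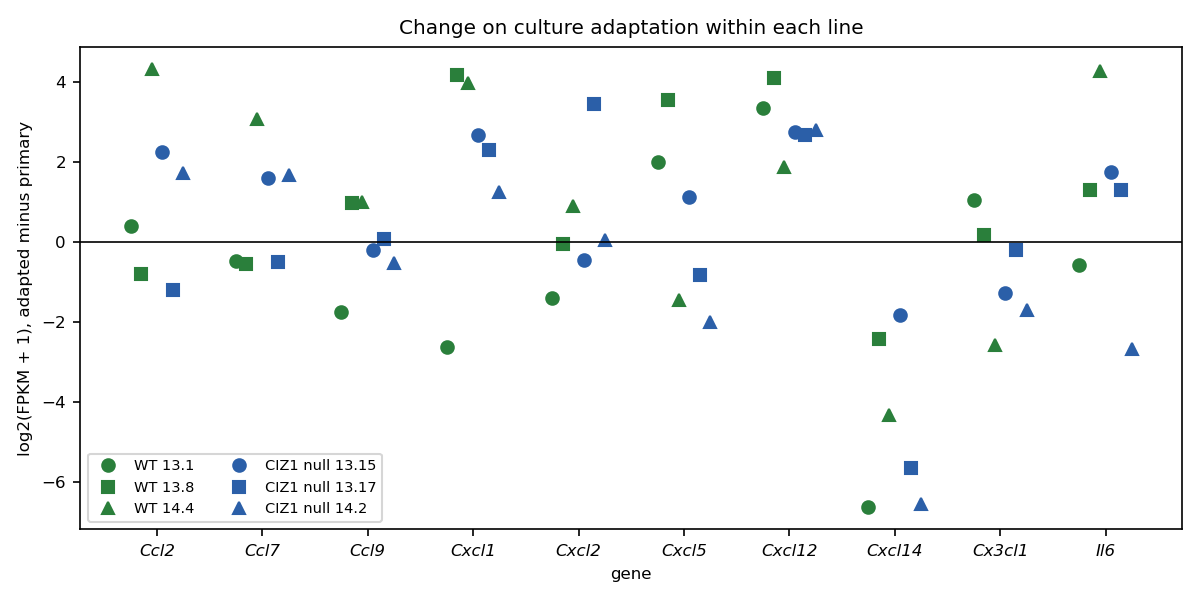
For each gene, points give the change in log2(FPKM + 1) from the primary population to the adapted line of the same embryo, for 3 WT (green) and 3 CIZ1 null (blue) embryos. The 6 points of Cxcl12 lie between 1.88 and 4.10 and those of Cxcl14 between -6.64 and -1.83, while each of the other 8 genes has points on both sides of 0.

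Of the neutrophil-attracting CXC ligands, Cxcl1 was the one called. It was at 8.45, 7.91 and 4.16 FPKM in primary WT and at 12.1, 10.96 and 30.8 FPKM in primary CIZ1 null cells. Adapted CIZ1 null lines had 82.2, 58.6 and 74.3 FPKM, all above the primary ones. The log2 change there was 2.08 (SE 0.40, limma adjusted p = 0.0431, higher in 3 of 3 lines), and adjusted p was 0.0899 with the line as a block. The call was lost without any 1 of the primary samples 13.15 (0.175), 13.17 (0.141) or 14.2 (0.0546), or of the adapted samples 13.17 (0.0594) or 14.2 (0.103). Of all units, 784 passed without adapted 13.17 and 25 to 40 in the others of these fits, against 975 with every sample. The Cxcl1 call was also lost with all 4 groups in a single fit (0.303), where 2969 of all units passed. In adapted WT cells the levels were 0.520, 161 and 80.3 FPKM, so line 13.1 lay below every primary population and the others above. The WT log2 change was 1.84 (SE 1.66, adjusted p = 0.489), and without adapted 13.1 it was 3.92 (adjusted p = 0.0159). Without that sample 1808 of all units passed, against 1902 with it.

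Cxcl2, whose promoter holds the same NF-kB match as Cxcl1, did not share this pattern. It was at 2.06, 0.277 and 0 FPKM in primary WT, and at 0.359, 0.131 and 0.130 FPKM in primary CIZ1 null cells. Adapted WT lines had 0.154, 0.234 and 0.873 FPKM, and adapted CIZ1 null lines 0, 11.4 and 0.166 FPKM. Adapted 13.17 was thus the single sample above 2.06 FPKM. Cxcl2 did not reach the mean of 1 FPKM required for testing in WT cells. In CIZ1 null cells it reached that mean through adapted 13.17 alone, and without this sample it was not tested. Its log2 change there, 1.02 (SE 0.95, adjusted p = 0.501), rests on that sample.

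Cxcl5, the third ELR-bearing ligand, spread more than any other member in WT cells. Primary WT cells had 50.6, 102 and 3.64 FPKM, and adapted ones 207, 1211 and 0.686 FPKM. Line 14.4 was the lowest in both states and 13.8 the highest in adapted cells. CIZ1 null cells went from 27.7, 29.9 and 36.0 FPKM to 62.0, 16.5 and 8.29 FPKM, with 13.15 rising and the others falling. Log2 changes were 1.37 (SE 2.46, adjusted p = 0.74) in WT and -0.56 (SE 0.66, adjusted p = 0.599) in CIZ1 null cells. Without adapted 13.15 the CIZ1 null change was -1.33 and passed (adjusted p = 0.0472). In that fit 2999 of all units passed, against 975 with every sample.

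Ccl2 and Ccl7, monocyte attractants that both bind Ccr2, moved together. Ccl2 was at 147, 224 and 114 FPKM in primary WT and 248, 139 and 294 FPKM in primary CIZ1 null cells. In adapted WT cells it was at 193, 128 and 2321 FPKM and in adapted CIZ1 null cells at 1180.2, 60.2 and 973 FPKM. Adapted 14.4, 13.15 and 14.2 were thus above every primary population, while adapted 13.17 was below all of them, and the groups overlapped in both genotypes. Ccl7 had 153, 181 and 112 FPKM in primary WT and 201, 171 and 234 FPKM in primary CIZ1 null cells. Its adapted levels were 110.5, 123 and 956 FPKM in WT and 615, 121 and 751 FPKM in CIZ1 null cells. The same 3 adapted lines were again the high ones. Over all 15 samples the Pearson correlation of log2(FPKM + 1) of Ccl2 and Ccl7 was 0.958, a description over samples that share lines and libraries.

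For Ccl2 the log2 change was 1.31 (SE 1.05, adjusted p = 0.436) in WT and 0.92 (SE 1.12, adjusted p = 0.609) in CIZ1 null cells. For Ccl7 it was 0.69 (SE 0.81, adjusted p = 0.604) and 0.93 (SE 0.67, adjusted p = 0.396). Both passed in CIZ1 null cells without adapted 13.17, Ccl2 at 2.30 (adjusted p = 0.0387) and Ccl7 at 1.75 (adjusted p = 0.0289). In that fit 784 of all units passed, against 975 with every sample. Apart from its own opposite-strand unit and both units of Ccl7, the units nearest to Ccl2 in pattern over the 15 samples were 2 units of H2-T22, an MHC class Ib gene (Pearson 0.959 and 0.951 among 19521 units ranked).

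Ccl9, a CC chemokine made by macrophages and other myeloid cells, was low. It had 2.51, 3.53 and 0.273 FPKM in primary WT, 2.04, 1.49 and 1.79 FPKM in primary CIZ1 null, 0.0488, 7.98 and 1.57 FPKM in adapted WT and 1.63, 1.60 and 0.928 FPKM in adapted CIZ1 null cells. The groups overlapped, and the log2 changes were 0.09 (SE 0.85, adjusted p = 0.956) in WT and -0.23 (SE 0.23, adjusted p = 0.538) in CIZ1 null cells. Its highest levels were 7.98 FPKM in adapted WT 13.8 and 7.28 FPKM in S15. Macrophage markers summed to 3.56 to 16.4 FPKM in adapted WT samples and to 63.5 to 82.7 FPKM in S14 and S15, and their part in Ccl9 was not tested.

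Cx3cl1, the membrane-anchored chemokine fractalkine, was at 13.5, 10.7 and 9.66 FPKM in primary WT and 10.1, 6.00 and 10.5 FPKM in primary CIZ1 null cells. Adapted WT lines had 29.3, 12.2 and 0.789 FPKM and adapted CIZ1 null lines 3.60, 5.06 and 2.53 FPKM. In CIZ1 null cells every adapted line lay below every primary population, with a log2 change of -1.06 that did not pass (SE 0.29, adjusted p = 0.0798). In WT cells the groups overlapped, 13.1 being higher and 14.4 lower than in primary cells (log2 change -0.44, SE 0.96, adjusted p = 0.787).

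By its own-strand unit, Il6 was low in primary cells, at 4.15, 5.74 and 2.79 FPKM in WT and 5.45, 1.35 and 8.51 FPKM in CIZ1 null populations. Adapted WT lines had 2.48, 15.5 and 73.3 FPKM, and adapted CIZ1 null lines 20.9, 4.75 and 0.479 FPKM. By this unit it was higher in 4 of 6 adapted lines and lower in 13.1 and 14.2, and the groups overlapped. Log2 changes were 1.67 (SE 1.02, adjusted p = 0.314) in WT and 0.12 (SE 1.01, adjusted p = 0.945) in CIZ1 null cells. By own-strand units, adapted 14.4 had the highest level of both Il6 and Ccl2, but adapted 14.2, which had 973 FPKM of Ccl2, had the lowest level of Il6. The 5 units nearest to Il6 in pattern were Abcf2,Smarcd3 (Pearson 0.909), AC117232.1,Pa2g4 (0.895), Nup160 (0.886), Arxes2 (0.875) and Fam49b (0.874), and no other member was among them.

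In all, 1 of the 9 members tested was called on adaptation of WT cells, against 9.55% of all units, and 2 of 10 on adaptation of CIZ1 null cells, against 4.86%. With the line as a block, 1 and 0 members were called, beside 499 and 10 of all units tested (1902 and 975 without the block). In WT cells the adapted and primary ranges of 2 members did not overlap, against 38.7% of units. In CIZ1 null cells the same was true of 4 members, against 37.1%. The members' median log2 change was 1.31 in WT (9 members) and 0.52 in CIZ1 null cells (10 members, with Cxcl2), beside -0.05 and -0.04 over all units. These medians thus cover different genes. In WT cells the members' median was 0.50 without primary 14.4, 0.55 without adapted 13.8 and 0.58 without adapted 14.4. The CIZ1 null median was 0.15 without primary 13.17, 0.12 without adapted 13.17 (9 members, Cxcl2 not among them) and -0.07 without adapted 13.15. The difference in adaptation between the genotypes called 0 of 10 members and 0.0% of units (928 units had an unadjusted p under 0.05, and no member did). For Cxcl12 it was -0.35 (95% interval -1.90 to 1.19), for Cxcl5 -1.93 (-8.14 to 4.29) and for Cxcl2 1.20 (-1.34 to 3.74). Cxcl2 passed the filter of this fit through adapted 13.17 alone.

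**Figure D3:**
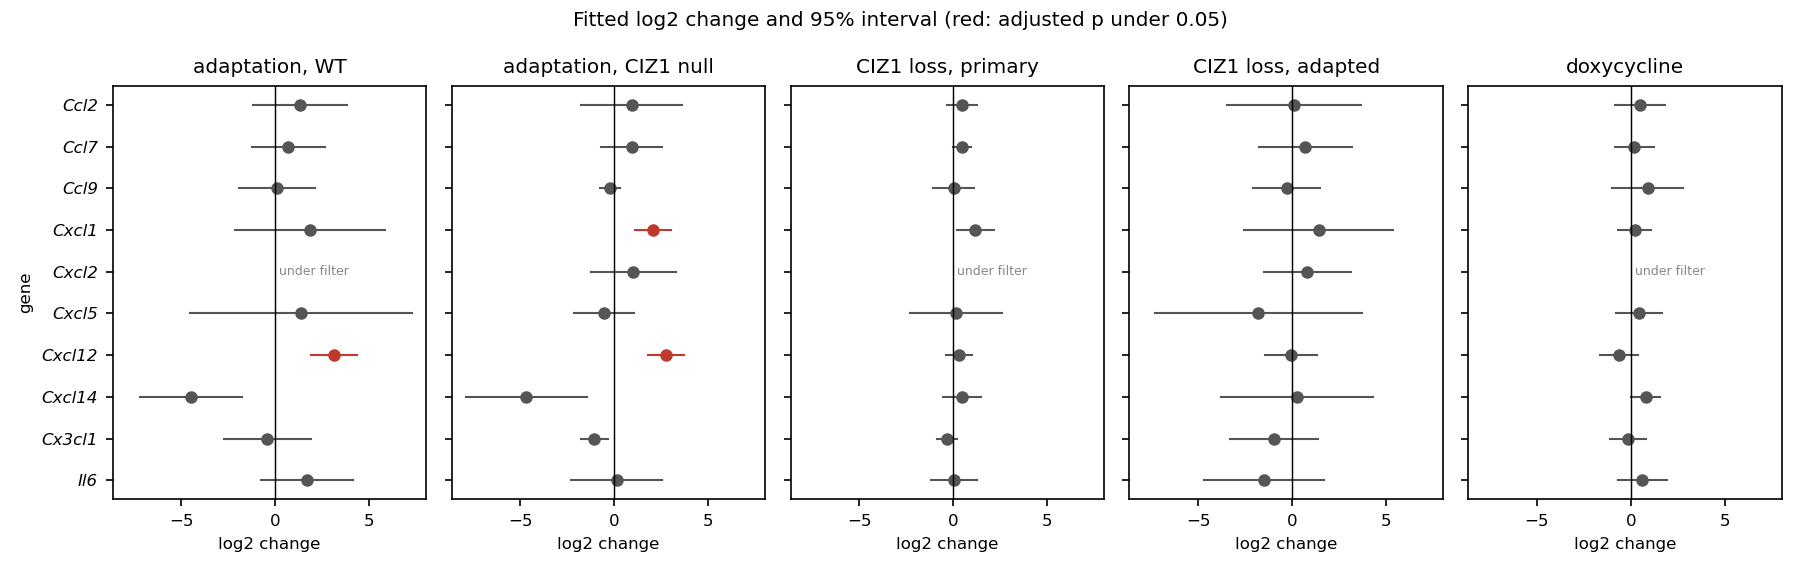
Fitted log2 changes (points) with 95% intervals (lines) of each gene in 5 comparisons, adapted minus primary, CIZ1 null minus WT or doxycycline minus untreated. Red marks an adjusted p under 0.05: Cxcl12 in both adaptations and Cxcl1 in CIZ1 null cells.

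The SD among lines was larger in adapted than in primary cells for 9 of 10 members in WT and 7 of 10 in CIZ1 null cells. Cxcl2 in WT, and Cxcl1, Cxcl12 and Cx3cl1 in CIZ1 null cells, went the other way. Among the 3 primary WT populations the SD of log2(FPKM + 1) had a median of 0.486 over the members, beside 0.185 over all units, and among primary CIZ1 null populations 0.481 beside 0.216. In adapted cells the medians were 2.15 beside 0.36 in WT and 1.42 beside 0.357 in CIZ1 null cells. In primary WT cells 9 of 10 members were above the median of all units and 6 lay above 90% of units, and in adapted WT cells 10 and 9 did. The counts for CIZ1 null cells were 7 and 5 in primary and 8 and 6 in adapted cells. The most spread was Cxcl5 (SD 4.91) in adapted WT cells, followed by Cxcl1 (3.63). In adapted CIZ1 null cells Cxcl14 (2.88) and Ccl2 (2.39) spread most, while Cxcl1 (0.247) and Ccl9 (0.254) differed less among lines than most units. These spreads are descriptions of 3 lines per group and were not tested.

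**Figure D4:**
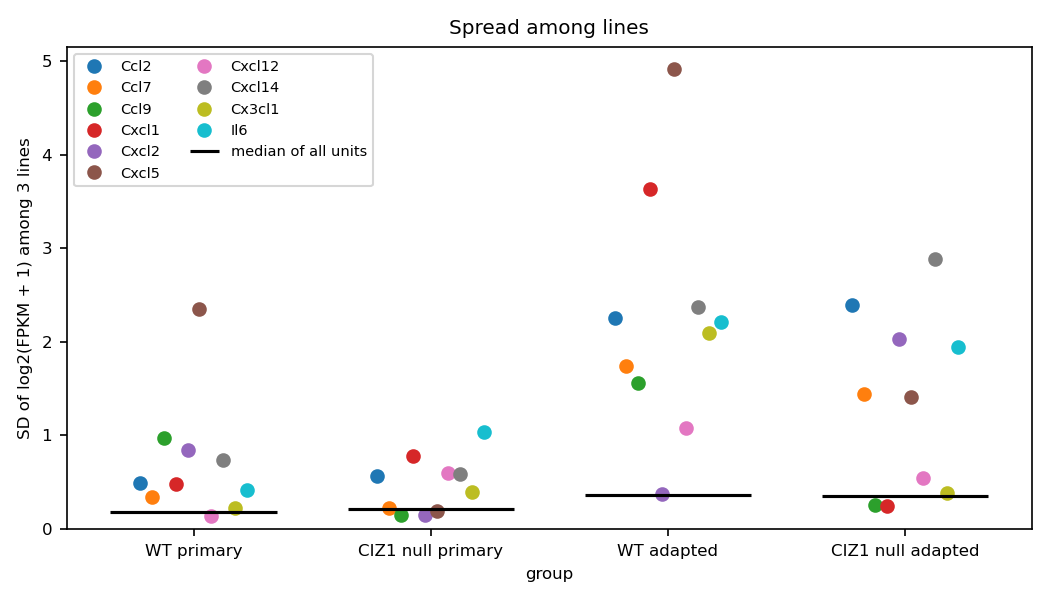
SD of log2(FPKM + 1) among the 3 lines of each group for every member (coloured points) and the median over all units (black lines). In adapted WT cells all 10 points lie above the black line.

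Loss of CIZ1 changed none of the members detectably. In primary cells 0 of 9 were called, against 0.00511% of units (1 unit, Ciz1 itself), and 1 member had ranges that did not overlap, against 11.9% of units. That member was Cxcl1, whose 3 CIZ1 null populations lay above the 3 WT ones (log2 change 1.17, SE 0.42, limma adjusted p = 0.776). It was also the one member with an unadjusted p under 0.05, as were 1225 units. At the other end, Cx3cl1 had a log2 change of -0.33 (95% interval -0.88 to 0.21). In adapted cells 0 of 10 were called, against 0.00501%, and 0 had separate ranges, against 8.28%. No member, and 804 units, had an unadjusted p under 0.05. There the changes ran from -1.79 for Cxcl5 (95% interval -7.31 to 3.73) to 1.41 for Cxcl1 (-2.54 to 5.36), and Cxcl12 differed by -0.06 (-1.44 to 1.31).

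In transgenic cells S13 and 13.17 (untreated) were set against S14 and S15, 2 samples a group, without pairing although the groups share populations. None of the 9 members tested was called, against 0.0101% of units (2 units), and no member, and 347 units, had an unadjusted p under 0.05. Ccl2 was at 224 FPKM in S13 and 139 in 13.17, against 148 in S14 and 411 in S15. Cxcl12 was at 88.4, 112, 44.3 and 91.1 FPKM and Il6 at 1.10, 1.35, 1.05 and 4.52 FPKM in the same samples. S15 was above S14 for all 3. Log2 changes ran from -0.64 for Cxcl12 (95% interval -1.65 to 0.37) to 0.88 for Ccl9 (-1.02 to 2.78). Cxcl14 was at 124 FPKM in S13 and 81.1 in 13.17 against 160 in S14 and 184 in S15, a log2 change of 0.77 (adjusted p = 1).

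Genes that act with the members were counted from lists. Of 27 other chemokine ligands, 10 were tested on adaptation of WT cells and 1 passed: Ccl17, a ligand of Ccr4, fell by 1.45 on the log2 scale (limma adjusted p = 0.0354). None of the 9 tested passed in CIZ1 null cells. Of 23 chemokine receptors, 3 and 2 were measured well enough to test and none passed. Of 19 genes of the Il6 family and its signalling, 18 were tested in each genotype. In WT cells the receptor subunit Osmr rose by 1.61 (adjusted p = 0.0295), and the cytokine Il11 fell by 2.60 (adjusted p = 0.0388), while none passed in CIZ1 null cells. Of 26 NF-kB pathway genes, all were tested. Tlr2, a receptor that feeds NF-kB, rose in both genotypes, by 3.10 (adjusted p = 0.00907) and 2.90 (adjusted p = 0.0209), and Zfp36, an mRNA decay factor, fell by 1.93 in WT cells (adjusted p = 0.0372). In CIZ1 null cells Nfkbia (1.78, adjusted p = 0.0215) and Nfkbiz (1.49, adjusted p = 0.0387), an inhibitor and a cofactor of NF-kB, also rose. Median log2 changes of the NF-kB list were 0.37 and 0.64, beside -0.05 and -0.04 over all units. On loss of CIZ1 or with doxycycline no gene of these 4 lists passed.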

How the data were processed

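RNA-seq was analysed in 15 samples of mouse embryonic fibroblasts. Per the labels, the authors trimmed reads (cutadapt 1.8.3), aligned them to GRCm38 (HISAT2 2.0.5), assembled transcripts with Cufflinks and deposited FPKM per transcription unit, normalised with Cuffnorm. A second deposited table holds the authors' log2 fold changes, p-values and q-values (Cuffdiff 2.2.1) and was not used. The kit is not known to mark strand, so reads of a gene and its antisense unit cannot be told apart. The table gives no strand: it was read from the order of unit identifiers, which matched the annotation for 98.2% of 33121 genes with a single unit. Opposite-strand units had 6.16% to 128% of the mean of the own-strand unit.

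Groups came from the labels. The embryo of 12 samples was found from values 100% identical to the study's per-line lists. The source name of primary 13.17 reads S13, but its title and column name are S06. The third primary CIZ1 null population is this transgenic one, as in the study. No embryo was assigned to S13, S14 or S15.

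Groups were compared on log2(FPKM + 1) with limma 3.58.1 (R 4.3.3, eBayes with trend), using the samples of each comparison and units with a mean of at least 1 FPKM. P-values were adjusted by Benjamini-Hochberg over all units tested, at a threshold of 0.05, and fold changes of low genes are understated on this scale. Adapted lines derive from the primary populations, so they pair by embryo. Their deviations from group means correlated at 0.146 (13.1), -0.01 (13.8), 0.21 (14.4), 0.11 (13.15), 0.089 (13.17) and -0.019 (14.2). The scripts were tested on simulated data. The members and lists were chosen with earlier results of these data known. The genes named are the 10 members, list genes called in a comparison, the 5 units nearest to Ccl2 and to Il6 in pattern, and Ciz1, and some results for list genes are not reported here. Python 3.11.15 was used for other steps.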

Additional observations from a re-analysis of the deposited data

How the results depend on the processing

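Alternatives were a pseudocount of 0.1, no filter, a minimum of 5 FPKM, quantile normalization, all 4 groups in a single fit, line of origin as a block, primary CIZ1 null groups of 2 or 4 samples, and leaving out each sample (or, over 6 lines, each line). The count of members called on adaptation of WT cells was 1, and 2 with a minimum of 5 FPKM (Cxcl14 added). With a sample left out it was 0 to 2, and where it was 0, 62 to 70 of all units passed, against 1902 in the main fit. In CIZ1 null cells the count of members was 2. It was 0 without a filter (adjusted p = 0.0507 for Cxcl12 and 0.0707 for Cxcl1), 0 with the line as a block, 0 with the 2 primary CIZ1 null samples without a transgene, and 0 to 4 with a sample left out. Where it was 0, calls over all units were 322, 10, 30 and 25 to 40 in that order, against 975 in the main fit. The block, which pairs samples by embryo, changed no other member's call. With all 4 groups in a single fit, Cxcl14 passed in CIZ1 null cells (adjusted p = 0.0445) and Cxcl1 did not (0.303), while 2969 of all units passed. The other 4 comparisons had 0 members called, and the 6 lines together 2, under every alternative run except for the 6 lines without 13.1, where Cxcl1 was called too (log2 change 2.88, adjusted p = 0.00937). Quantile normalization moved the median log2 change of all units from -0.049 to 0.058 in WT and from -0.038 to 0.058 in CIZ1 null adaptation.

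Signs that turned were those of values that had not passed. With a pseudocount of 0.1, Ccl9 in WT adaptation was -0.27 and Il6 in CIZ1 null adaptation -0.076. With the 2 primary CIZ1 null samples without a transgene, Il6 was -0.45, and with quantile normalization Ccl9 over 6 lines was 0.083. With a sample left out, WT adaptation ranged from -0.73 to 0.82 for Ccl9, -0.64 to 4.11 for Cxcl5, -0.32 to 1.23 for Ccl7 and -1.32 to 0.72 for Cx3cl1. CIZ1 null adaptation ranged from -0.84 to 1.10 for Il6 and -1.33 to 0.054 for Cxcl5. Loss of CIZ1 in adapted cells ranged from -0.67 to 2.70 for Cxcl1, -4.53 to 0.22 for Cxcl5 and -0.62 to 0.46 for Cxcl12. The difference between genotypes ranged from -4.67 to 0.079 for Cxcl5 and -0.91 to 0.16 for Cxcl12. Over 6 lines with a line left out, Ccl9 ranged from -0.29 to 0.26 and Cxcl5 from -0.23 to 0.88. The cause was not tested.

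FPKM carry no counts, so no counting error was computed, and 3 lines a group limit every comparison.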
